A study of Mus musculus with 7 samples.

Results

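The 8 Kruppel-like factor genes Klf2, Klf4, Klf5, Klf6, Klf7, Klf9, Klf10 and Klf13 were examined for binding of Fos in the mouse hippocampus. They were chosen by name, with earlier results of these data known. Every peak within 50 kb of their GRCm38 spans was taken from each of 6 peak lists. All 8 genes were found among the 21887 protein-coding genes of the gene table. Together their windows cover 1013 kb and held 21, 81 and 39 peaks in the lists of kainic acid replicates 1, 2 and 3. The lists of saline replicates 1, 2 and 3 held 0, 6 and 0 peaks there.

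Fos chromatin immunoprecipitation followed by sequencing was run on the hippocampus of wild-type C57BL/6J mice aged 2 months. One group of 3 libraries came from mice given saline. The other 3 libraries came from mice given kainic acid, a glutamate receptor agonist that provokes seizures, at 10 mg/kg in 2 intraperitoneal injections 30 min apart, and the mice had level 4 seizures when they were killed 1 hour after the first injection. One input library, made without antibody, has no peak list here. The number of animals behind each library and whether replicates are separate animals are not given in the labels, so the p-value measures only the spread between these libraries, which may be technical. Whole hippocampal tissue was used, and a change in the number of cells with bound Fos cannot be told apart from a change in binding per cell.

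Kruppel-like factors are transcription factors with zinc fingers at the end of the protein, which bind GC-rich and CACCC sequences and either activate or repress genes. Several are immediate early or stress-induced genes, and in neurons members of the family promote or restrain the outgrowth of axons. Fos forms the AP-1 factor with Jun proteins. Its binding heptamer was searched here as TGANTCA, a loose pattern in which N is any base. A Fos peak near a gene is a binding position and says nothing of that gene's transcription.

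The libraries differed much in the length of their lists. The kainic acid lists held 15009, 63197 and 29650 peaks and the saline lists 7, 3277 and 2, so a site missing from a list is a site that was not called there. No read totals were used here, and the depth behind a peak is given as the number of reads over its summit (the pileup), solved from the deposited fold and p-value. Over the 147 peaks near the Klf genes it ran from 12 to 78 reads, with a median of 23. As a check of the tissue label, regions found in at least 2 kainic acid lists were sought within 50 kb of neuronal and liver genes. Such a region lay near 10 of 10 neuronal genes and 6 of 10 liver genes, with medians of 9 and 1 regions. Of all protein-coding genes 62.7% had one, with a median of 1 region. These numbers were not adjusted for gene length.

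Promoter sequence shows where Fos peaks touch the starts of these genes, and RefSeq's promoter table for GRCm38.p6 held 6 of the 8 (not Klf5 and Klf10). The 250 bases before the start are printed 5′ to 3′ for the 4 genes at which any list had a peak. Capitals mark matches to the AP-1 heptamer TGANTCA, the cyclic AMP response element TGACGTCA or the GC box GGGCGG, on either strand.
Klf9, chr19:23140976-23141225, plus strand: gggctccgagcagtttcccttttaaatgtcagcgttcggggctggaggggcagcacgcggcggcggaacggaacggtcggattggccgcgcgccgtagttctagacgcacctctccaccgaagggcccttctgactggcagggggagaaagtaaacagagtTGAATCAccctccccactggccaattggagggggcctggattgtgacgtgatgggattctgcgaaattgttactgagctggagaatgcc
Klf4, chr4:55532476-55532725, minus strand: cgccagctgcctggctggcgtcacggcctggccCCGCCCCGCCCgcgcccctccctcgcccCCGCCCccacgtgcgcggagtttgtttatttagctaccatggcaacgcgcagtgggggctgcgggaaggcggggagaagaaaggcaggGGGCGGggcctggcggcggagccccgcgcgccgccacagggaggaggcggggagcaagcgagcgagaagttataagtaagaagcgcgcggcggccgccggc
Klf2, chr8:72318812-72319061, plus strand: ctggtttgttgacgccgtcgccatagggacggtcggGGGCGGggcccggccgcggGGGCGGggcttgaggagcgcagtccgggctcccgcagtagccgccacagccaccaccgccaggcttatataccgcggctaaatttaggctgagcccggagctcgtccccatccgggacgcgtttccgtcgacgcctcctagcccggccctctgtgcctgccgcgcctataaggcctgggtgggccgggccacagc
Klf13, chr7:63938916-63939165, minus strand: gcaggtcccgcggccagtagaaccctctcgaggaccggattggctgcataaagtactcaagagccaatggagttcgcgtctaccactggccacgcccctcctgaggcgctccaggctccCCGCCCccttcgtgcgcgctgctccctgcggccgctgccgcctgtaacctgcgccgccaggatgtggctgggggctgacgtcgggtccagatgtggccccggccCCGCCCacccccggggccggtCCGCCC

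Klf9 was the only 1 of these 6 promoters with a match to the AP-1 heptamer TGANTCA. The match reads TGAATCA, with A at the open base, from 89 to 83 bases before the start. Its last 2 bases are also the first of a CACCC match. Of all 32851 promoters in the table, 6.75% held the heptamer in the same 250 bases. The GC box was found in 5 of the 6, all but Klf9, and in 32.7% of all promoters. CACCC was found in 4 of the 6 and in 52.0% of all. The cyclic AMP response element (1.55% of all promoters) and the CArG box bound by serum response factor (1.47%) were in none of the 6. In Klf4 a pair of the GC box matches share 1 base. These matches describe the letters of the window and do not show binding.

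**Figure D1:**
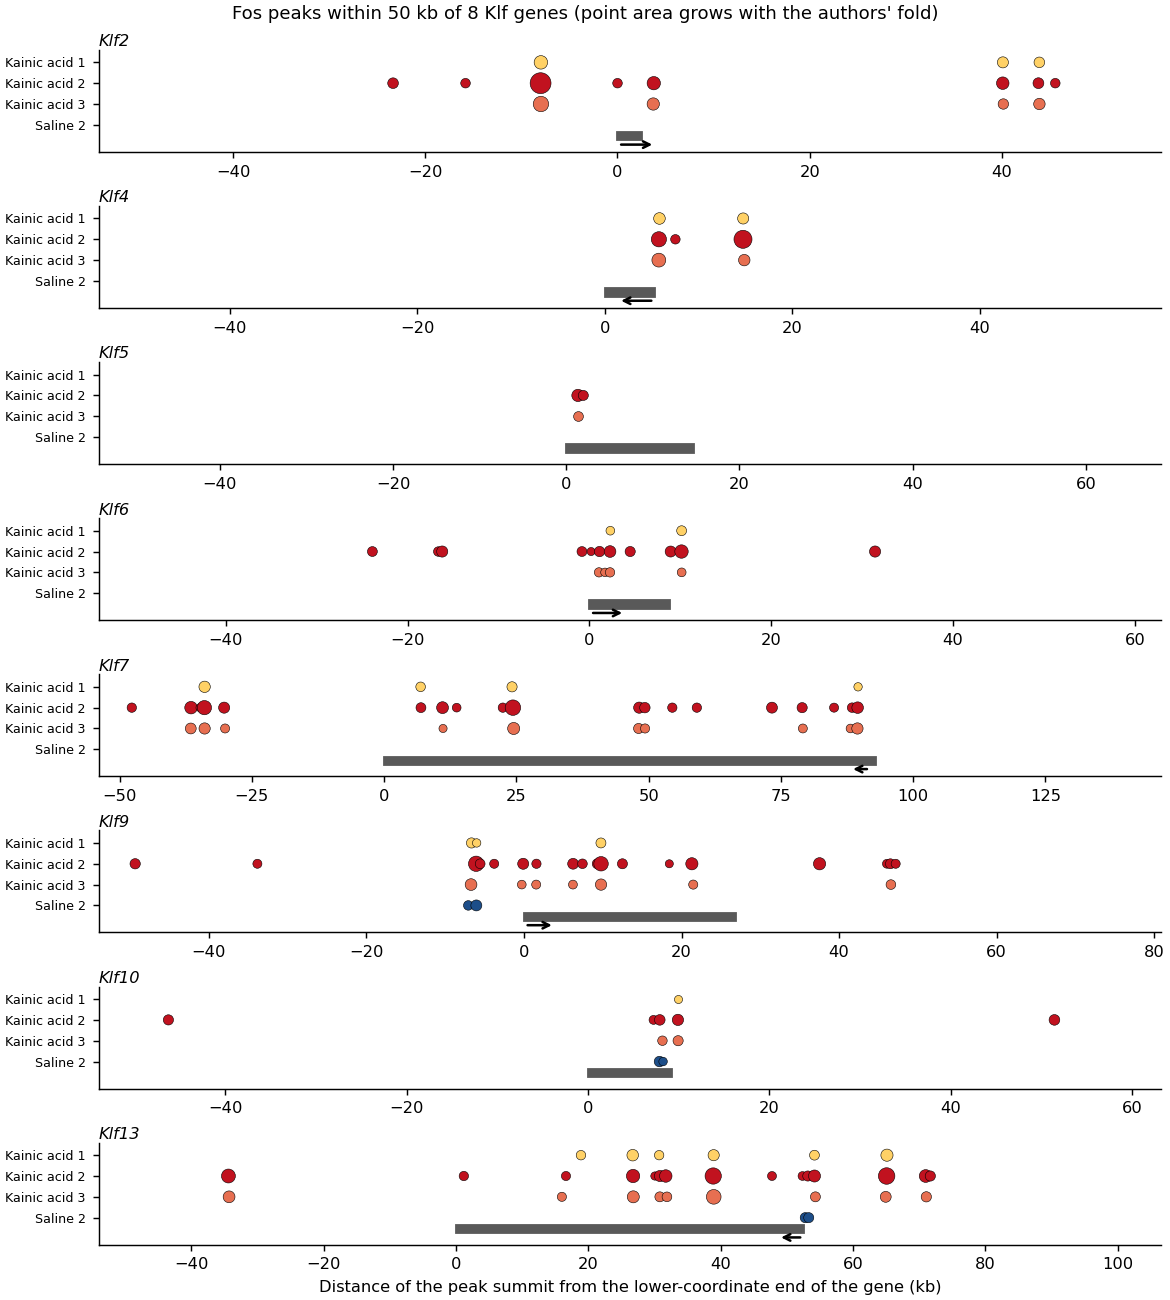
Each panel shows 1 gene (grey bar, arrow at the RefSeq start where the strand is in the table) with the summits of Fos peaks in the 3 kainic acid lists and saline replicate 2, at their distance in kb from the lower-coordinate end of the gene and with an area that grows with the authors' fold. Saline replicates 1 and 3 had no peak in these windows. Stacked points at 1 position are sites found in several lists, such as the site about 8 kb before Klf2, and Klf7 holds peaks along its whole span.

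The first question was whether more Fos sites were called near these genes after kainic acid. Every kainic acid list held more peaks in the 8 windows than any saline list. On the scale log10(number of peaks + 1), the kainic acid libraries averaged 1.62 ± 0.286 (SD, n = 3). The saline libraries averaged 0.282 ± 0.488 (SD, n = 3). The difference of 1.34 exceeded the SD of either group, and the two-sided exact permutation test over 20 assignments gave p = 0.1, the smallest that 3 libraries against 3 allow. This corresponds to 47.0 ± 30.8 peaks per kainic acid library (SD, n = 3) and 2.00 ± 3.46 per saline library (SD, n = 3).

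The windows took a like share of each long list. They held 0.140% of the peaks of kainic acid replicate 1 (95% Clopper-Pearson interval 0.0866 to 0.214), 0.128% of replicate 2 (0.102 to 0.159) and 0.132% of replicate 3 (0.0936 to 0.180). In saline replicate 2 they held 0.183% (0.0672 to 0.398), an interval that covers all 3 kainic acid shares. Saline replicates 1 and 3 held 0 of 7 and 0 of 2 peaks, which leaves their shares unknown up to 41.0% and 84.2% by the same interval. The length of the lists thus moved with the groups, while the share of a list near the Klf genes did not order by group. The intervals cover counting error only.

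Peaks of all lists that overlapped by at least 1 bp were merged into regions. Near the 8 genes 79 regions had a kainic acid peak, of which 18 were called in every kainic acid library, 20 in 2 of them and 41 in 1. These are 22.8%, 25.3% and 51.9%, beside 17.9%, 22.4% and 59.7% of the 66683 such regions of the series. The longest list carried most of the weakly supported sites. Of the 41 regions in 1 list, 39 were in kainic acid replicate 2 alone, and 19 of the 20 regions in 2 lists were in replicates 2 and 3. With 1 kainic acid list left out, a region had to be in both lists that remained, a stricter rule that also holds for the single genes below. Without replicate 2 the number in at least 2 lists was then 18 in place of 38, and without replicate 3 it was 19.

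**Figure D2:**
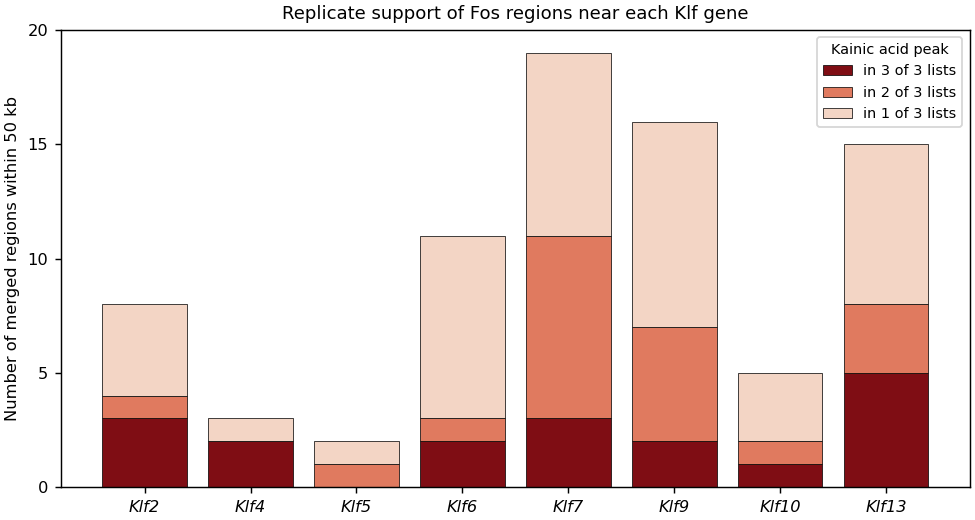
Bars give the number of merged regions within 50 kb of each gene with a kainic acid peak, split by how many of the 3 kainic acid lists held one. Klf13 had the most regions in all 3 lists (5) and Klf5 had none.

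All 8 genes had a region in at least 2 kainic acid lists within 50 kb, as did 62.7% of all protein-coding genes. A region in all 3 lists lay near 7 of the 8, all but Klf5, against 42.5% of all protein-coding genes. The median number of regions in at least 2 lists was 3.5 per Klf gene (range 1 to 11) and 1 over all protein-coding genes. Per 100 kb of window the medians were 3.33 and 0.872. Of the 38 regions 21 overlapped the span of the Klf gene itself, 9.85 per 100 kb of span, and 17 lay in the flanks, 2.13 per 100 kb. Over all protein-coding genes these densities were 1.70 and 1.21, with regions counted once for each gene they lie near. The differences from all protein-coding genes were not tested, since the 8 genes were proposed with results of these data known.

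Ranks of the fold were used within each list, because the authors' folds are not scaled between libraries. A percentile rank of 0 is the highest fold of a list, and the mean was taken over the kainic acid lists that hold the region. The kainic acid lists held 15009, 63197 and 29650 peaks, so the same rank gives a higher percentile in a shorter list. Percentiles are thus not directly comparable between lists. The best region lay under a mean percentile rank of 10 for 3 of the 8 genes, Klf2, Klf4 and Klf13. The same held for 2774 protein-coding genes, 12.7% of all 21887 with those without a region included, and 13733 had a region. A gene with more regions has more ranks to take its best from. The median number of regions was 3.5 for the 8 genes and 1 over all protein-coding genes. The median rank of the best region was 19.6 for the 8 genes and 24.7 over the protein-coding genes with a region. The number of Klf genes under 10 changed when single kainic acid libraries, whose lists differ in length, were left out. It was 5 without kainic acid replicate 1, with Klf7 at 7.20 and Klf9 at 8.78, and 2 without replicate 3, with Klf4 at 10.6. Without replicate 2 it was 1, with Klf4 at 10.1 and Klf13 at 12.9. The 38 regions had a median mean percentile rank of 40.0, close to the 41.9 of all 26862 such regions of the series. The windows thus held ordinary as well as highly ranked sites. Summits of the 18 regions in all 3 lists lay within a median of 81.5 bp of each other (range 15 to 648).

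**Figure D3:**
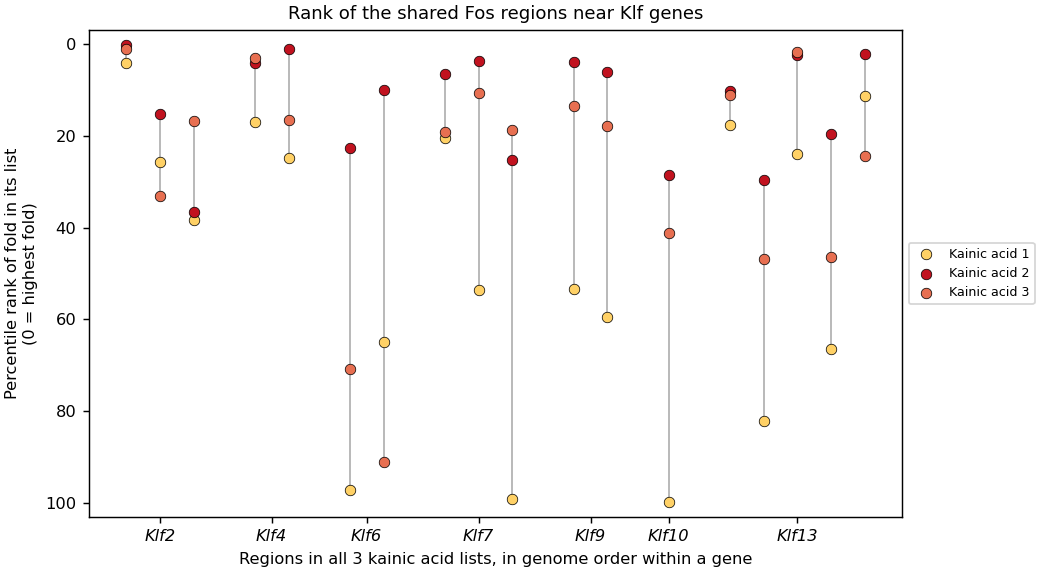
For each of the 18 regions near Klf genes in all 3 kainic acid lists, points give the percentile rank of the authors' fold in each list, with 0 at the top for the highest fold and a line joining the lists. The region before Klf2 has the best mean rank. Several regions near Klf6, Klf7, Klf9 and Klf10 have far higher percentiles in kainic acid replicate 1 (15009 peaks) than in replicate 2 (63197 peaks). Percentiles depend on list length. The Klf10 region ranks 14979 and 18075 in these 2 lists, and the best Klf9 region 8019 and 2512.

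**Figure D4:**
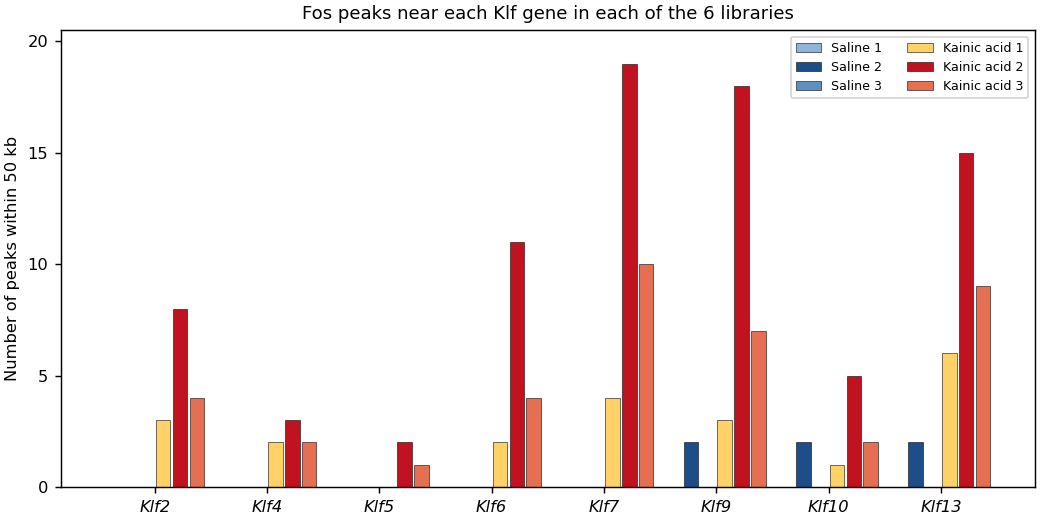
Bars give the number of peaks within 50 kb of each gene in each of the 6 libraries. Kainic acid replicate 2 has the most peaks at every gene, and saline peaks appear at Klf9, Klf10 and Klf13 in replicate 2 alone.

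Klf2, a factor that keeps endothelial cells and T cells quiescent, had the site of best mean rank in the family. The kainic acid lists held 3, 8 and 4 peaks within 50 kb and the saline lists 0, 0 and 0, so the groups did not overlap. The leading region (chr8:72310484-72311483) lay before the gene with a mean summit 7979 bp from the start. Its fold was 8.30, 21.3 and 11.2 in kainic acid replicates 1, 2 and 3, which put it at ranks 629, 158 and 311 of the 3 lists. The mean percentile rank was 1.83 ± 2.08 (SD, n = 3), better than that of 96.4% of the protein-coding genes with a region. Pileups at its summit were 34, 78 and 56 reads, and the 3 summits lay within 38 bp.

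The other Klf2 regions ranked lower. The nearest region in at least 2 lists (chr8:72322464-72323051) lay 810 bp past the end of the gene and was called in replicates 2 and 3, at percentile ranks of 10.3 and 8.98. Both remaining regions were in all 3 lists but inside Eps15l1, a neighbouring gene of endocytosis, and so nearer to it than to Klf2. The one at chr8:72358470-72359466 had a mean percentile rank of 24.7 ± 8.91 (SD, n = 3) and the one at chr8:72362574-72363341 of 30.6 ± 12.0 (SD, n = 3). At the Klf2 start a peak was called in kainic acid replicate 2 alone (chr8:72318898-72319225), at a percentile rank of 74.2 and with 18 reads over its summit. It overlaps the last 164 of the 250 printed bases, which hold neither GC box (214 to 209 and 195 to 190 bases before the start).

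Klf4, known as one of the factors that reprogram cells to pluripotency, had few sites, all before the gene. The kainic acid lists held 2, 3 and 2 peaks and the saline lists 0, 0 and 0, without overlap between the groups. Both regions in at least 2 lists were in all 3. The one next to the gene (chr4:55532701-55533757) had folds of 5.92, 10.8 and 8.82 and pileups of 36, 47 and 53 reads. Its mean percentile rank was 8.09 ± 7.74 (SD, n = 3), and its summits lay on average 437 bp before the start. It reached 25 bases into the printed promoter, with the peaks of replicates 2 and 3 but not that of replicate 1. The other region (chr4:55541310-55542314), 9440 bp before the start, varied more between libraries, with percentile ranks of 24.9, 1.07 and 16.5. No other protein-coding gene lay nearer than Rad23b at 140464 bp, although the predicted gene Gm12506 overlaps both regions.

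Klf5, which drives proliferation of epithelial cells, had the weakest support. Its window held 0, 2 and 1 kainic acid peaks and 0, 0 and 0 saline peaks, so the groups overlapped at 0. The single region in at least 2 lists (chr14:99299736-99300347) lay inside the gene, with folds of 6.76 and 3.92 in replicates 2 and 3 and percentile ranks of 16.9 and 53.6. Without either of these lists no region was counted, since at least 2 lists were still required.

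Klf6, a factor induced by injury in several tissues, had 2, 11 and 4 kainic acid peaks and 0, 0 and 0 saline peaks. The groups did not overlap, yet 8 of its 11 regions were in replicate 2 alone. The region of best mean rank (chr13:5871185-5871826), 792 bp past the end of the gene, ranked very unevenly, at percentiles of 65.0, 9.96 and 91.1. The other region in all 3 lists (chr13:5863529-5864005) lay inside the gene, at percentile ranks of 97.2, 22.7 and 70.7. These sites were thus in all 3 lists while near the bottom of at least 1, and the lists differ in length. In kainic acid replicates 1, 2 and 3 the former ranked 9751, 6297 and 27017. The latter ranked 14593, 14366 and 20969, in lists of 15009, 63197 and 29650 peaks. The remaining region in at least 2 lists, also inside the gene (chr13:5862231-5863342), was in replicates 2 and 3 at percentile ranks of 47.6 and 74.1. The Klf6 promoter had no peak in any list.

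Klf7, which supports the outgrowth of axons from sensory neurons, had the most regions. The kainic acid lists held 4, 19 and 10 peaks and the saline lists 0, 0 and 0. Of its 11 regions in at least 2 lists, more than near 98.1% of protein-coding genes, 8 overlapped its 92.9 kb span and 3 lay in the downstream flank. Only 3 were in all 3 lists. The best of them (chr1:63994804-63996141), 33307 bp past the end of the gene, had folds of 5.60, 9.40 and 5.48 and a mean percentile rank of 15.5 ± 7.73 (SD, n = 3). The region at chr1:64053314-64054404 inside the gene ranked at 53.6, 3.68 and 10.7. The region nearest to the start (chr1:64118329-64119460, mean summit 2434 bp past it) lay at percentile ranks of 99.1, 25.2 and 18.7. Its ranks in these lists of unequal length were 14875, 15906 and 5552, and its pileups were 38, 45 and 60 reads. The nearest other protein-coding gene, 4933402D24Rik, lay 223424 bp or more from these regions, and the Klf7 promoter had no peak in any list. Without replicate 2 the number of regions was 3, and without replicate 3 it was 4.

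Klf9, which glucocorticoids and thyroid hormone induce and which acts in the maturation of dentate granule neurons, combined regions inside the gene, at the promoter and before it. The kainic acid lists held 3, 18 and 7 peaks and the saline lists 0, 2 and 0, again without overlap. The best-ranked region (chr19:23134072-23135515), 5711 bp before the gene, was in all 3 kainic acid lists and in saline replicate 2, and the gene 2410080I02Rik overlaps it. Its folds were 4.31, 11.0 and 6.05 with kainic acid, at percentile ranks of 53.4, 3.97 and 13.6. Pileups at these peaks were 25, 65 and 51 reads. In saline replicate 2 the higher of its 2 peaks had a fold of 5.15 and ranked 413 of 3277, at a percentile of 12.6 and with 26 reads. The region holds more than 1 summit. The saline summit lay 6043 bp before the start, near that of kainic acid replicate 2 at 6070 bp and a lower peak of replicate 1 at 6007 bp, which had a fold of 2.63, a percentile rank of 99.0 and 20 reads. The higher peaks of kainic acid replicates 1 and 3 lay 6659 and 6718 bp before the start. With summits required within 200 bp, the best mean percentile rank at Klf9 was 27.8, that of chr19:23150301-23151492 inside the gene.

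At the Klf9 promoter a region in kainic acid replicates 2 and 3 (chr19:23140664-23141439) covered all 250 printed bases. Its summits lay 97 and 278 bp before the start, the former next to the AP-1 heptamer at 89 to 83 bases. It was no strong site, with folds of 5.23 and 2.91 and percentile ranks of 32.7 and 92.3. Klf4 and Klf9 were thus 2 of 6 promoters touched by a region in at least 2 kainic acid lists, which held for 4.37% of all promoters in the table. Inside the gene, chr19:23150301-23151492 was in all 3 lists, at percentile ranks of 59.5, 6.01 and 17.8. Of the 7 Klf9 regions in at least 2 lists, 5 overlapped the gene and 1 (chr19:23187208-23188246) lay nearer to Smc5. Without kainic acid replicate 2 or without replicate 3, Klf9 had 2 regions in place of 7.

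Klf10, first described as an early gene induced by TGF-beta, had 1, 5 and 2 kainic acid peaks and 0, 2 and 0 saline peaks, and the groups overlapped. The region at chr15:38298892-38300170, inside the gene, had peaks in kainic acid replicates 2 and 3 and in saline replicate 2. Its percentile ranks were 41.6 and 64.7 with kainic acid, and 25.2 for the higher of 2 saline peaks, which had a fold of 4.67. Pileups were 30 and 37 reads with kainic acid and 25 with saline. The region at chr15:38300922-38301688, 211 bp beyond the higher-coordinate end of the gene, was in all 3 kainic acid lists and no saline list. It ranked at percentiles of 99.8, 28.6 and 41.2, and its pileups were 22, 46 and 44 reads. Without kainic acid replicate 2 or without replicate 3, Klf10 had 1 region in place of 2.

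Klf13, which binds GC-rich promoters and was described as a late activator of the chemokine gene Ccl5 in T cells, had the most regions in all 3 kainic acid lists. The kainic acid lists held 6, 15 and 9 peaks and the saline lists 0, 2 and 0, without overlap. Of its 8 regions in at least 2 lists, 5 were in all 3, and 5 were counted without kainic acid replicate 2 or without replicate 3. The best (chr7:63924563-63925925) lay inside the gene, with folds of 5.40, 12.6 and 10.0 and pileups of 28, 57 and 63 reads. Its mean percentile rank was 9.40 ± 12.6 (SD, n = 3). The region at chr7:63912861-63913311, also inside, ranked evenly at 17.7, 10.2 and 11.2. Before the gene, chr7:63950838-63951811 ranked at 11.2, 2.25 and 24.3, 12471 bp from the start.

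The last 2 Klf13 regions in all 3 lists ranked lower. They lay at chr7:63916349-63917486, where the gene E030018B13Rik overlaps Klf13, with a mean percentile rank of 52.8 ± 26.8 (SD, n = 3), and at chr7:63940002-63940875, 1647 bp before the start, with 44.1 ± 23.5 (SD, n = 3). Around the Klf13 start, kainic acid replicate 2 and saline replicate 2 had peaks close to each other. Saline replicate 2 had a peak at chr7:63939004-63939209, on 162 of the printed bases, where no kainic acid list had one. A peak of kainic acid replicate 2 alone lay on its other side (chr7:63938461-63938858), with its summit 217 bp past the start, a percentile rank of 94.6 and 19 reads. A saline replicate 2 peak fell on 4.21% of all promoters of the table. The second saline peak lay in a region shared with kainic acid replicate 2 alone (chr7:63939436-63939929), at a percentile rank of 47.4 in saline and 55.5 with kainic acid.

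Kainic acid and saline numbers of peaks thus did not overlap at 6 of the 8 genes, all but Klf5 and Klf10. Over all protein-coding genes every kainic acid list exceeded every saline list at 33.5%. Leaving out kainic acid replicate 1 or saline replicate 2 raised the number of such Klf genes to 7. It fell to 4 when the kainic acid lists were brought to equal length, and also at a −log10 q of at least 10. No saline list had a peak in 36 of the 38 shared regions, 94.7% of them (95% Clopper-Pearson interval 82.3 to 99.4). Over the series it was 98.0% of 26862 regions. Both exceptions, at Klf9 and Klf10, were peaks of saline replicate 2, and the other saline lists hold 7 and 2 peaks in all.

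Among regions in at least 2 kainic acid lists, the farthest inside the distance limit lay 40920 bp from Klf2, at a mean percentile rank of 30.6, and the nearest one outside lay 57294 bp from Klf6 (chr13:5803202-5804195), at 46.8.

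The rest of the family, 9 Klf and 9 Sp genes, had fewer sites. A region in at least 2 kainic acid lists lay within 50 kb of 7 of these 18 genes (38.9%), 5 of 9 Klf and 2 of 9 Sp genes, and the median was 0 regions. None was found near Klf3, Klf8, Klf11, Klf17, Sp1, Sp3, Sp4, Sp5, Sp7, Sp8 and Sp9. Most regions lay near Klf1, Klf16 and Klf12, with 4, 4 and 3. The 4 regions near Klf1, an erythroid factor, all lay inside neighbouring genes, and the best of them (chr8:84933321-84934454, mean percentile rank 5.79) was in Mast1. The 3 regions near Klf12 lay inside that gene, at mean percentile ranks of 52.3 to 63.6. Sp2 and Sp6 share 1 region, which lies in Sp2 (chr11:96972549-96973617). The difference between the 8 genes and the rest of the family was not tested, since the 8 were proposed with results of these data known.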

How the data were processed

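The data were 6 peak lists of Fos chromatin immunoprecipitation, 3 of kainic acid and 3 of saline libraries, called per library and not pooled. The submitters' processing notes name Trim Galore 0.6.4, Bowtie2 2.3.4.3, MACS2, deepTools 3.5.0 and build mm10, and the deposited peak names mention a mapping quality of 30. Neither the q-value cutoff nor the control used in peak calling is given in the sources used here. The authors' deposited fold is a linear ratio of a peak to its local background. The authors' deposited −log10 p and −log10 q belong to 1 library, and their deposited score is 10 times the −log10 q, rounded down. None is scaled between libraries.

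Peaks were merged at an overlap of at least 1 bp, and a region was assigned to every gene within 50 kb of its span in the RefSeq gene table of GRCm38.p6, the assembly that mm10 names. Starts and strands came from RefSeq's promoter table. The reads k over a summit and the background reads λ were found from the fold, read as (k + 1)/(λ + 1), together with a Poisson p-value, within 0.001 for 147 of 147 peaks. When tested on simulated data made with the same formula, this recovered 500 of 500 read numbers. Merging recovered 993 of 993 simulated shared sites, which were placed too far apart to touch each other. These runs check the code only, and crowded sites were not tested. Numbers of peaks were compared by an exact permutation test over libraries. Python 3.11.15, numpy 2.4.6, pandas 2.3.3 and scipy 1.17.1 were used.

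All 8 members are named, with each one's best-ranked region, its regions in all 3 kainic acid lists, those with a saline peak and the one nearest to the gene. Of the rest of the family, the 3 genes with most regions and those with none are named. The members and lists were chosen with earlier results of these data known.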

Additional observations from a re-analysis of the deposited data

How the results depend on the processing

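The difference in log10 number of peaks near the 8 genes was positive in all settings run, from 1.07 (equal list lengths, the 15009 highest folds of each kainic acid list) to 1.62, and its permutation test cannot pass 0.05 at this size. Leaving out 1 library gave 1.19 to 1.62. The exact permutation test then gave p = 0.2 without kainic acid replicate 2 or without replicate 3, and p = 0.1 without any other library. A fit with the replicate block gave the same 1.34, and the exact permutation of signs within pairs gave p = 0.25, its smallest value for 3 pairs. The labels do not say that equal numbers mark a shared day or litter, so the numbers were not treated as pairs. Correlations of list membership between libraries of equal number were −0.165, −0.177 and −0.0491. They cannot show whether pairs exist, since saline replicates 1 and 3 hold only 7 and 2 peaks. The 38 shared regions near the 8 genes became 15 when peaks needed a −log10 q of 10 or more, 22 with equal list lengths and 18 when all 3 lists were required, since each keeps fewer peaks or asks for more lists. Leaving out 1 library gave 18 to 38, with a region required in both remaining kainic acid lists where 1 of these was left out. The share without a saline peak ran from 92.9% (−log10 q of at least 5) to 100% (−log10 q of at least 10, and 50% reciprocal overlap), and from 94.4% to 100% with 1 library left out, the highest without saline replicate 2. The number of genes with a shared region was 6 to 8, as Klf5 lost its region without kainic acid replicate 2 or 3 and Klf5 and Klf6 lost theirs at a −log10 q of 10. The number of genes whose groups did not overlap was 4 (equal list lengths, or a −log10 q of at least 10) to 7. The number with a best region at a mean percentile rank under 10 was 1 to 5 with 1 library left out, and 5 at a −log10 q of at least 10. Alternatives for these 2 numbers were chosen after the data were seen. Numbers of regions of single genes stayed within 1.5 times in 80 alternatives and not in 32, 31 of them lower. Mean percentile ranks of best regions stayed within their SD in 104 and moved further in 9. Settings in which a gene lost its region are not among these. Some SDs were wide, at 41.4 for Klf6 and 26.2 for Klf9. Ranks of 37.5 to 78.0 for Klf6 and 8.78 to 33.5 for Klf9 thus counted as within them. The rank of Klf10 ran from 31.6 (ranked by −log10 q) to 70.5 (without kainic acid replicate 2).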
